A study of Mus musculus with 2 samples.

Results

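CD4, CD8 and the accessory receptors of T cells were examined in the thymus of miR-146a Tg and WT mice. The 10 genes are the co-receptors Cd4, Cd8a and Cd8b1, the adhesion and costimulatory receptors Cd2, Cd5, Cd6, Cd28 and Cd27, and the cell surface antigens Cd24a and Thy1. They were taken by name and make up 10 of 23296 named genes and 13 of 30533 transcripts in the deposited tables, and a gene with several transcripts took the value of the one whose mean RPKM was highest. The Tg library came from Balb/c mice that carry a miR-146a transgene, which the study describes as systemically expressed, and the WT library from Balb/c mice of the wild-type genotype. The paper states that the Tg mice were a gift from another university and that the WT mice were purchased. Genotype and origin of the mice thus differ together and cannot be told apart. Both sets of mice were 5 to 6 weeks old. In each genotype the thymus of 1 male and that of 1 female were pooled and sequenced as 1 library after oligo(dT) selection, so there is no measure of the spread between animals and no test between genotypes. The promoter of the transgene is not given in the sources used here.

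CD4 and CD8 are co-receptors. CD4 binds MHC class II and CD8 binds MHC class I molecules while the T cell receptor reads the peptide, and both bring the kinase Lck to the receptor. Thymocytes first lack both, then carry both at the double-positive stage, and after positive selection keep CD4 or CD8 as single-positive cells. The accessory receptors set how strongly a thymocyte adheres and signals. CD2 and CD28 add to the T cell receptor signal, CD5 and CD6 dampen or tune it, CD27 is a costimulatory member of the TNF receptor family, Thy1 is a GPI-anchored protein that marks the T lineage in mice, and CD24 (heat-stable antigen) is high on immature thymocytes and lost as single-positive cells mature.

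The values are RPKM, in which a read count is divided by the transcript length and by the reads counted in that library. Each RPKM value of the 13 transcripts could be written as a whole, even number of reads over a whole length, within a relative tolerance of 1e-12. With 2 reads taken as 1 fragment, the totals behind the values were 15396696 fragments in the Tg library and 14522669 in the WT library. A ratio is the Tg value divided by the WT value, without a pseudocount. The 95% intervals are exact binomial (Clopper-Pearson) intervals on fragments, cover counting error only and hold no variation between mice.

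All 10 receptor genes lay within 1.5-fold of equal values in the libraries. None was over 1.5-fold higher in the Tg library, where 7.74% of the 11095 genes with a mean of at least 1 RPKM were, and none was over 1.5-fold lower, where 11.0% were. Their median log2(Tg/WT) was 0.05, against 0.03 for all of these genes. At a fold of 1.2 the only higher gene was Thy1, with a background of 25.2% of genes, and the only lower gene was Cd2, with a background of 24.7%. The higher count depended on the scaling. It was 0 under median centring and upper quartile scaling, and 3 (Thy1, Cd8a and Cd8b1) with both libraries rescaled to 1 sum. Cd2 alone was lower under each of these. The members were thus spread between these 2 genes, from a log2 difference of -0.46 for Cd2 to 0.29 for Thy1. Rescaling both libraries to 1 sum of RPKM raised all log2 values by 0.12, and no receptor passed 1.5-fold under it either.

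**Figure D1:**
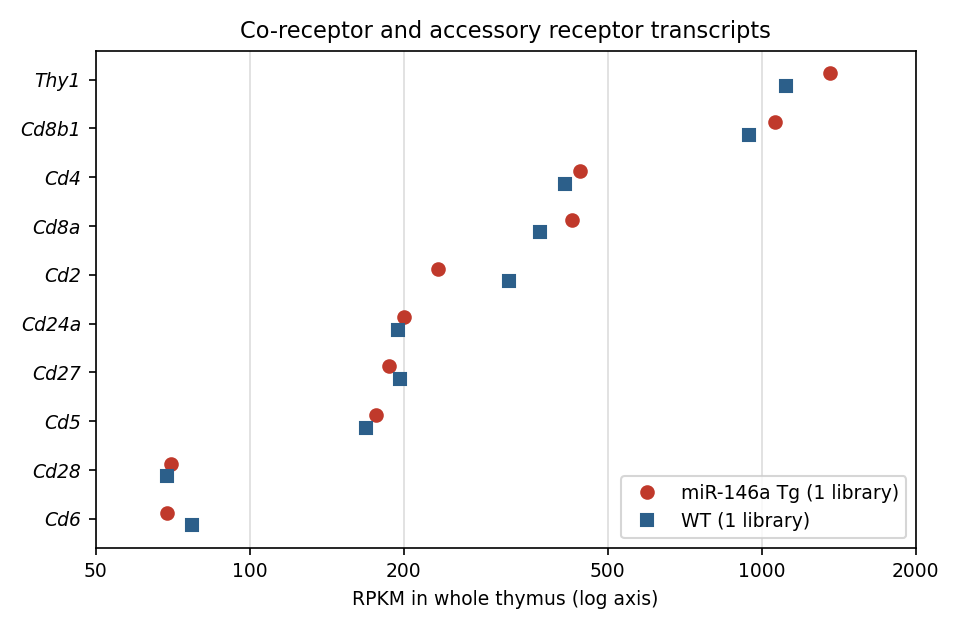
RPKM of the 10 receptor genes in whole thymus on a log axis, with the miR-146a Tg library as circles and the WT library as squares (1 library each). Thy1 and Cd8b1 stood near or above 1000 RPKM in both libraries, Cd6 and Cd28 near 70 RPKM, and the widest separation between the symbols is that of Cd2.

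These were abundant transcripts of the thymus. Thy1 ranked 31 among all named genes in the Tg library and 58 in the WT library, and Cd8b1 ranked 45 and 69 in the Tg and WT libraries. The lowest members, Cd28 and Cd6, still ranked 981 and 1000 in the Tg library, against 1036 and 895 in the WT library. Summed over the 10 genes, the level was 4231 RPKM in the Tg library and 3869.5 RPKM in the WT library, a ratio of 1.09. In whole thymus, fewer cells of a type and less RNA per cell cannot be told apart, which holds for every value here.

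**Figure D2:**
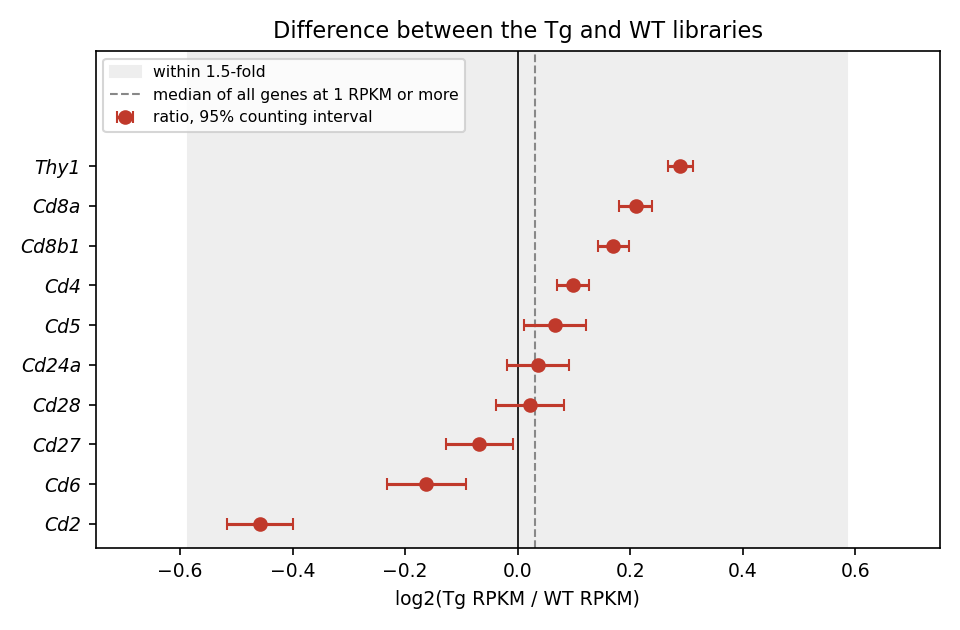
log2(Tg/WT) of the 10 receptor genes, with bars for the 95% counting interval, the range within 1.5-fold shaded and the median of all genes at 1 RPKM or more dashed. All 10 points lie in the shaded range, and the intervals of Cd24a and Cd28 include 0.

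The 3 co-receptor genes were each slightly higher in the Tg library. Cd4, on chromosome 6 of GRCm38 (124864693 to 124888247), had 443 RPKM in the Tg library and 414 RPKM in the WT library. Its ratio was 1.07 (95% interval 1.05 to 1.09) on 21089 and 18588 fragments in the Tg and WT libraries. Cd8a, which encodes the CD8 α chain (chromosome 6, 71373427 to 71379171), had 427 RPKM in the Tg library and 369 RPKM in the WT library, a ratio of 1.16 (1.13 to 1.18). Cd8b1, which encodes the CD8 β chain (chromosome 6, 71322788 to 71337492), had 1063 and 945 RPKM in the Tg and WT libraries, a ratio of 1.12 (1.10 to 1.15). The direction of these 3 genes was the same under every scaling tried.

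Per length, Cd8b1 was the most abundant co-receptor transcript in both libraries, while Cd4 and Cd8a stood close together. The level of Cd8b1 was 2.49 times that of Cd8a in the Tg library and 2.56 times in the WT library. The balance of the CD8 chains in the Tg library was thus 0.973 of its WT value, with a counting interval (0.946 to 1.00) that reaches no change. Cd8a stood at 0.965 of the Cd4 level in the Tg library and at 0.892 in the WT library, so the balance of CD8 α to CD4 was 1.08 times its WT value (1.05 to 1.11). Such ratios within a library do not move with the scaling between libraries. With 1 library per genotype they have no replicate check.

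Cd8a and Cd8b1 lie 35935 bp apart. The nearest expressed gene on the other side of Cd8a, Rmnd5a, had 234 RPKM in the Tg library and 204 RPKM in the WT library, a ratio of 1.14 that was close to those of both CD8 genes. Krcc1, the nearest expressed gene on the other side of Cd8b1 at 35963 bp, had 35.6 and 51.6 RPKM in the Tg and WT libraries, a ratio of 0.691. Ratios along this locus thus lay on both sides of 1. Beside Cd4 lie Gpr162, with a ratio of 1.14 (43.2 RPKM in the Tg library and 37.8 RPKM in the WT library), and Lag3, a CD4-related inhibitory receptor, with a ratio of 1.07 on low levels of 5.87 and 5.47 RPKM in the Tg and WT libraries.

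Cd8a was listed with 2 transcripts, which differ by 1 exon. NM_001081110 has a length of 3130 nt in these files and holds exon 4 of 5, which NM_009857 (3099 nt) skips. The exon lies on the plus strand of GRCm38 at chr6:71375888-71375918. It is shown because it carries the codons for Cys-any residue-Cys-Pro (capitals), the motif in the CD8 α tail through which the chain binds Lck:
Cd8a exon 4: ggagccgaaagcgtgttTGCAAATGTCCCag
Its 31 nt are not a multiple of 3, and in the annotation the coding sequence, stop codon included, is 744 nt with the exon and 669 nt without it. The form without the exon is the tailless α′ chain of mouse thymocytes.

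The transcript with the tail exon had 427 RPKM in the Tg library and 369 RPKM in the WT library, and the tailless one 410.4 RPKM and 360.4 RPKM in the Tg and WT libraries. The ratios were 1.16 and 1.14, and reads of the shared exons count for both. In fragments, the transcript with the exon exceeded the one without it by 988 in the Tg library and by 559 in the WT library. That excess was 5.05% of the fragments of the tailless transcript in the Tg library and 3.45% in the WT library, a quotient of 1.46 (95% counting interval 1.32 to 1.63). How the authors' counting assigned reads across a skipped exon is not given in the sources used here, so the excess is not an inclusion level. The interval takes the excess as a count of its own. It holds only if every fragment of the tailless transcript was also counted for the longer one, and would otherwise be too narrow. A set of 108 transcript pairs of 77 genes was taken, with recovered lengths within 20% of the annotated ones. In each pair the longer transcript exceeded the shorter by 10 to 200 nt and by at least 100 fragments in each library. Of these pairs, 31.5%, Cd8a included, shifted at least as far in either direction. Many rest on far fewer fragments than Cd8a, so this share does not show how common its shift is at its depth. Among pairs with at least as many extra fragments in both libraries, a pair of Arpp21 shifted furthest. Its log2 was 0.44 (1253 extra fragments in the Tg library and 657 in the WT library), against 0.55 for Cd8a. The other pairs of that depth were of Dhx15 (-0.43), Arpp21 again (0.42), Gnas (0.40 and 0.36) and Lck (0.08). Such pairs are too few to show how unusual the Cd8a shift is at its depth. That set of pairs and the comparison by depth were chosen after the Cd8a values were seen.

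**Figure D3:**
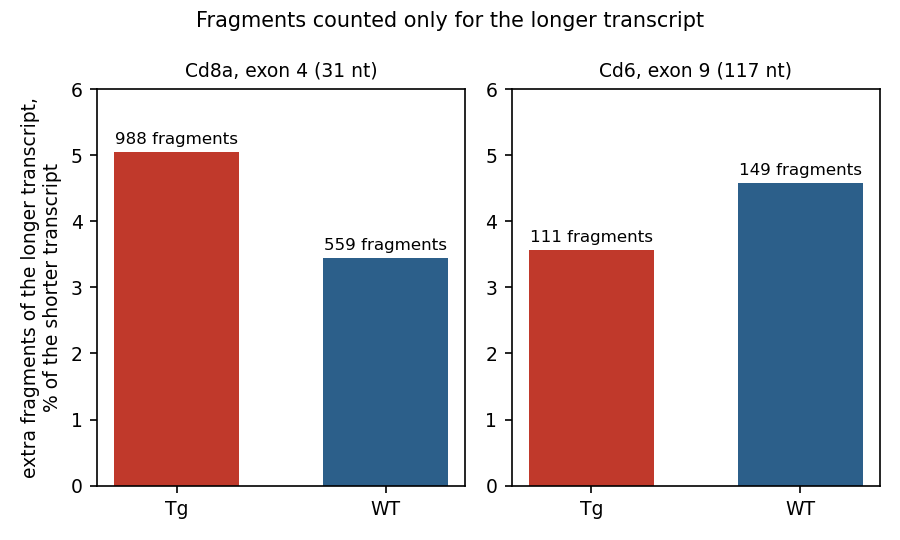
Fragments by which the longer transcript of Cd8a (with exon 4) and of Cd6 (with exon 9) exceeds the shorter one, as a percentage of the fragments of the shorter transcript, with the Tg library left of the WT library. The bar of Cd8a is higher in the Tg library (988 fragments, against 559) and that of Cd6 is lower (111, against 149), and no error between mice can be shown.

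Cd2, which binds CD48 on neighbouring cells in mice and strengthens adhesion and signalling, had the lowest ratio of the 10. It had 234 RPKM in the Tg library and 321 RPKM in the WT library. With 4115 fragments in the Tg library and 5332 in the WT library, the ratio was 0.728 (95% interval 0.699 to 0.758). The gene lies on chromosome 3 (101275908 to 101287939). Of all genes at 1 RPKM or more, 15.0% had a lower log2 than Cd2, so its place was low but not extreme. It was lower under every scaling, from -0.34 on the log2 scale with both libraries rescaled to 1 sum to -0.50 with upper quartile scaling. Its rank among all genes was 220 in the Tg library and 163 in the WT library. Within a library, Cd2 stood at 0.171 of the Thy1 level in the Tg library and 0.288 in the WT library, so this balance was 0.596 of its WT value (0.570 to 0.622). This pair joins the lowest and the highest ratio of the 10, so no other pair could give a lower balance. The counting interval does not allow for that choice. The expressed neighbours of Cd2, Ptgfrn and Igsf3, lie 165163 and 88733 bp away and had ratios of 0.841 and 1.68 on levels of 2.50 and 3.26 RPKM in the Tg library and 2.98 and 1.94 RPKM in the WT library.

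Cd5 and Cd6 encode related scavenger receptor cysteine-rich proteins that restrain T cell receptor signals, and they are neighbours on chromosome 19 (10718107 to 10739026 and 10789339 to 10830062). Cd5 had 176 RPKM in the Tg library and 168 RPKM in the WT library, a ratio of 1.05 (95% interval 1.01 to 1.09). Cd6 had 69.0 RPKM in the Tg library and 77.2 RPKM in the WT library, a ratio of 0.894 (0.851 to 0.938). The level of Cd5 over that of Cd6 was 2.56 in the Tg library and 2.18 in the WT library, a quotient of 1.17 (1.10 to 1.25), so the neighbours differed from each other by more than counting error. Between them lies the noncoding gene A430093F15Rik, with 7.55 and 11.2 RPKM in the Tg and WT libraries (a ratio of 0.675). The genes on the outer sides, Vps37c beside Cd5 and Tmem132a beside Cd6, had ratios of 1.25 and 2.04 on levels of 9.76 and 1.73 RPKM in the Tg library and 7.78 and 0.849 RPKM in the WT library.

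The files list 2 transcripts of Cd6, NM_009852 (3034 nt, ratio 0.894) and NM_001037801 (2917 nt, ratio 0.902). The longer one holds exon 9 of 13, which is coding and in frame. It lies on the minus strand of GRCm38 at chr19:10792828-10792944, and is shown as the stretch that separates the Cd6 transcripts:
Cd6 exon 9: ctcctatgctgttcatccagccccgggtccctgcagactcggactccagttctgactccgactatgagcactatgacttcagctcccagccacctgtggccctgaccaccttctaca
The longer transcript exceeded the shorter by 111 fragments in the Tg library and by 149 in the WT library. The excess was 3.57% and 4.58% of the shorter transcript in the Tg and WT libraries, a quotient of 0.779 whose counting interval (0.606 to 1.00) reaches equal shares. As for Cd8a, this interval takes the excess as a count of its own.

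Cd28, the receptor for CD80 and CD86 that provides the main costimulatory signal, was the closest to equal values as deposited. It had 70.1 RPKM in the Tg library and 69.0 RPKM in the WT library. With 4657 fragments in the Tg library and 4325 in the WT library, the ratio was 1.02 (95% interval 0.974 to 1.06). Its log2 of 0.02 turned to -0.01 under median centring and upper quartile scaling. Ctla4, the inhibitory receptor of the same ligands and the next expressed gene on chromosome 1 at 135666 bp, was at 1.21 RPKM in the Tg library and 2.10 RPKM in the WT library, a ratio of 0.576 on few fragments (0.369 to 0.886).

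Cd27, a receptor for CD70 (chromosome 6, 125232620 to 125237136), had 187 RPKM in the Tg library and 196 RPKM in the WT library, a ratio of 0.954 (95% interval 0.915 to 0.994). Its log2 of -0.07 turned to 0.05 when both libraries were rescaled to 1 sum. A second transcript, NM_001042564, is 944 nt shorter in these files. Exons 2 and 3 of 6, which it lacks, make up 132 and 180 nt of that. It had 121 RPKM in the Tg library and 140.3 RPKM in the WT library, a ratio of 0.859. The longer transcript exceeded it by 3370 fragments in the Tg library and by 3204 in the WT library, a scaled ratio of 0.992 (0.945 to 1.04). As for Cd8a, the excess and its interval rest on a counting rule that is not known, and the excess was not assigned to single exons. The noncoding gene E130112N10Rik overlaps the Cd27 locus and had 17.2 and 20.4 RPKM in the Tg and WT libraries. Of other genes, only Mir8113 was found with annotated exons that overlap exons of Cd27, so some Cd27 reads may be shared with Mir8113.

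Thy1 had the highest ratio of the 10. It had 1363 RPKM in the Tg library and 1115 RPKM in the WT library. With 36401 fragments in the Tg library and 28103 in the WT library, the ratio was 1.22 (95% interval 1.203 to 1.24). The gene lies on chromosome 9 (44043384 to 44048579). Of all genes at 1 RPKM or more, 77.1% had a lower log2, so its place was high but not extreme. Cd24a (chromosome 10, 43579169 to 43584265) had 199.7 RPKM in the Tg library and 195 RPKM in the WT library, a ratio of 1.03 (0.987 to 1.07). Its log2 of 0.04 was -0.001 under upper quartile scaling. CD24 is lost and Thy1 kept as thymocytes mature, and both transcripts lay within 1.5-fold.

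Of 25 genes of signalling and adaptor partners of these receptors, 23 lay within 1.5-fold, 1 was higher and 1 lower in the Tg library, with a median log2 of 0.03. Of all 11095 measured genes, 9017 lay within 1.5-fold, so this is the usual state of a gene here. Lck, the kinase bound by CD4 and CD8 α, had 308 RPKM in the Tg library and 259 RPKM in the WT library, a ratio of 1.19 (95% interval 1.16 to 1.22). Lat, an adaptor phosphorylated below Lck, had 722 and 675 RPKM in the Tg and WT libraries. Ptprc (CD45), the phosphatase that activates Lck, had 139 and 196 RPKM, a ratio of 0.710, and the adaptor Sla had 143 and 146 RPKM. The higher gene was Siva1, which binds the tail of CD27, with 24.7 RPKM in the Tg library and 15.1 RPKM in the WT library. The lower gene was Traf5, an adaptor of CD27, with 2.28 RPKM in the Tg library and 3.75 RPKM in the WT library.

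Regulators of Cd4 and Cd8 transcription were mostly within 1.5-fold, as were 9017 of all 11095 measured genes. Of 22 measured genes of 23 listed, 20 were within it, 1 was higher and 1 lower in the Tg library, and the median log2 was 0.16. Tcf7 had 1370.2 RPKM in the Tg library and 1020.0 RPKM in the WT library, a ratio of 1.34, and Ets1 had 166 and 200.3 RPKM in the Tg and WT libraries, a ratio of 0.830. Chd4, a chromatin remodeller, had 152 RPKM in the Tg library and 122 RPKM in the WT library, and Myb had 137 and 127 RPKM in the Tg and WT libraries, at ratios of 1.25 and 1.07. The gene over 1.5-fold lower was Zbtb7b, which encodes the factor ThPOK that sets the CD4 lineage, with 11.7 RPKM in the Tg library and 19.9 RPKM in the WT library (ratio 0.588, 0.533 to 0.649). The gene over 1.5-fold higher was Dnmt1, the maintenance DNA methyltransferase, with 24.0 RPKM in the Tg library and 11.3 RPKM in the WT library. Runx3, which silences Cd4 in CD8 cells, had 6.68 and 8.02 RPKM in the Tg and WT libraries.

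**Figure D4:**
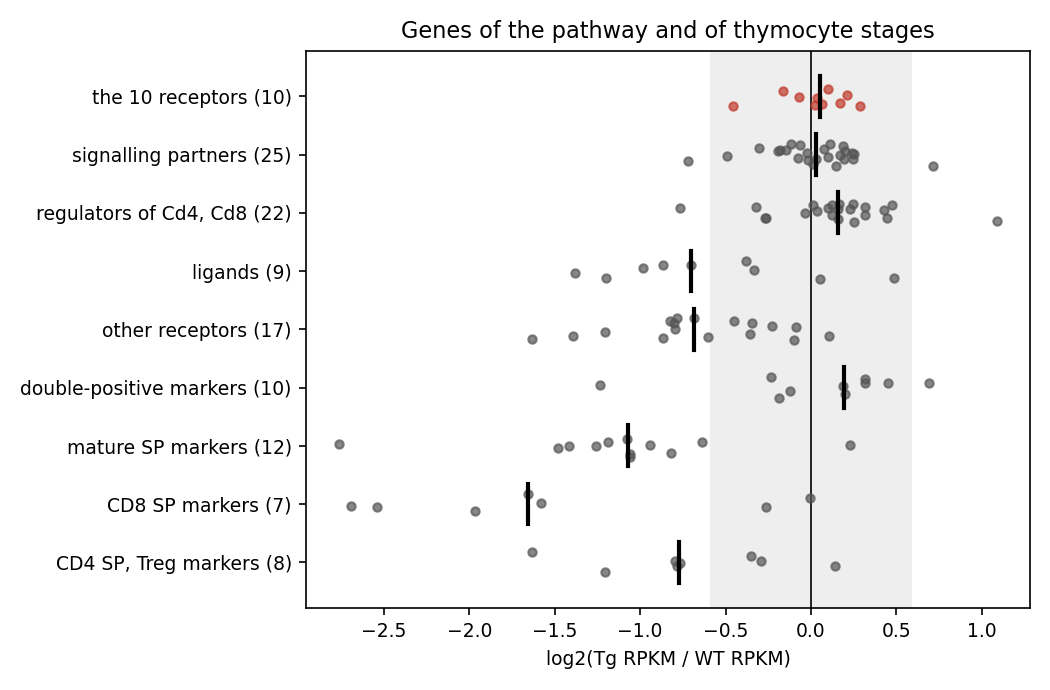
log2(Tg/WT) of single genes (points) at a mean of 1 RPKM or more, by list, with the number of genes in brackets, the list median as a vertical bar and the range within 1.5-fold shaded. The receptors, their signalling partners and the regulators centre near 0, with medians of 0.05, 0.03 and 0.16, while the ligands and the other receptors have medians of -0.70 and -0.68.

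Several ligand genes of these receptors were lower in the Tg library. Of 15 listed ligand genes, 9 reached 1 RPKM on average. In the Tg library 5 of these were over 1.5-fold lower and 0 over 1.5-fold higher, with -0.70 as their median log2. Of all 11095 measured genes, 11.0% were over 1.5-fold lower and 7.74% over 1.5-fold higher. B2m, H2-D1 and H2-K1, which encode the MHC class I molecules that CD8 binds, had 359.7, 86.3 and 66.2 RPKM in the Tg library and 937, 171 and 152 RPKM in the WT library. The heavy chain genes have close paralogs, so their reads are uncertain. For these and the class II genes below, reads of Balb/c mice were mapped to mm10, and the effect of strain differences was not tested. H2-Aa, a chain of the MHC class II molecule that CD4 binds, had 20.05 RPKM in the Tg library and 36.5 RPKM in the WT library. H2-Ab1 and H2-Eb1, further class II chains, were within 1.5-fold at ratios of 0.795 and 0.767, and the class I-like H2-T3, a ligand of CD8 αα, was the highest of the list at 1.40, with 16.0 RPKM in the Tg library and 11.4 RPKM in the WT library. Cd48, the ligand of CD2, had 47.2 RPKM in the Tg library and 76.8 RPKM in the WT library, a ratio of 0.615 (95% interval 0.563 to 0.672). Both Cd2 and its ligand gene were thus lower in the Tg library. Il16, a cytokine that binds CD4, had 78.7 and 76.0 RPKM in the Tg and WT libraries. Cd80, Cd86, Cd70 and Alcam, ligands of CD28, CD27 and CD6, were under 1 RPKM.

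Many other costimulatory and inhibitory receptors were also lower in the Tg library. Of 17 measured genes of 18 listed, 10 were lower by over 1.5-fold and 0 higher in the Tg library, and their log2 values had a median of -0.68. The shares over all 11095 measured genes were 11.0% lower and 7.74% higher. Icos, the inducible relative of CD28, had 4.31 RPKM in the Tg library and 13.4 RPKM in the WT library, a ratio of 0.322 (95% interval 0.275 to 0.377). Cd226, an adhesion receptor of T and NK cells, had 4.83 and 12.7 RPKM in the Tg and WT libraries. Of the TNF receptor family, Tnfrsf4 had 6.64 RPKM in the Tg library and 15.3 RPKM in the WT library, Tnfrsf18 had 13.3 and 22.9 RPKM in the Tg and WT libraries, and Tnfrsf14 had 28.2 and 45.3 RPKM. Cd84, Cd7, Tigit, Btla and Ctla4 were the others over 1.5-fold lower, with ratios from 0.548 to 0.660. Cd96 and Slamf6 were within 1.5-fold, with 72.2 and 33.4 RPKM in the Tg library and 98.5 and 39.1 RPKM in the WT library. These genes were mostly at lower levels than the 10, and whether the lists differ was not tested.

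Marker genes of thymocyte stages are given beside these values, since each stage carries its own set of receptors. Of all 11095 measured genes, 9017 lay within 1.5-fold, 11.0% were over 1.5-fold lower and 7.74% over 1.5-fold higher in the Tg library. Of 10 double-positive markers, 8 lay within 1.5-fold, 1 was higher and 1 lower. Their median log2 was 0.19, with a summed level of 1199 RPKM in the Tg library and 1054 RPKM in the WT library. Of 12 markers of mature single-positive cells 11 were lower by over 1.5-fold (median -1.07 on the log2 scale, sums of 737 RPKM in the Tg library and 1446 RPKM in the WT library), as were 5 of 7 CD8 single-positive markers (58.8 and 160.5 RPKM) and 5 of 8 markers of regulatory T cells and CD4 single-positive thymocytes (66.7 and 103 RPKM). All 8 markers of cycling cells were over 1.5-fold higher (646 and 224 RPKM in the Tg and WT libraries). Of other cells, 5 of 5 neutrophil markers (136 and 536 RPKM) and 4 of 4 erythroid markers (93.1 and 170.3 RPKM) were lower. B cell markers (1 of 5 lower) summed to 22.5 and 30.2 RPKM in the Tg and WT libraries, those of macrophages and dendritic cells (1 of 4 lower) to 39.9 and 61.4 RPKM, stromal markers (1 of 4 lower) to 24.5 and 24.1 RPKM, and double-negative thymocyte markers (2 of 7 higher and 2 lower) to 61.5 and 46.6 RPKM. Only 4 of 8 listed genes of macrophages and dendritic cells and 4 of 11 listed stromal genes were measured. Most of each sum was 1 gene. Lyz2 had 34.7 RPKM in the Tg library and 56.2 RPKM in the WT library, and the stromal marker Pecam1 had 17.0 and 16.4 RPKM. The epithelial regulators Foxn1 and Aire were under 1 RPKM. Zbtb7b, Runx3, Ctla4, Icos, Tnfrsf4 and Tnfrsf18 stand in 2 lists. The part of these cell types in the receptor values was not tested.

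The 3′ UTRs of the 10 genes were searched for matches to the seed of miR-146a-5p, since that is the miRNA the mice overexpress. The mature sequence, from RefSeq on GRCm38.p6 (chr11:43374435-43374456, minus strand), is shown with the seed, bases 2 to 8, in capitals:
miR-146a-5p: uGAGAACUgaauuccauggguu
A match of 8 bases (AGTTCTCA) or 7 bases (AGTTCTC or GTTCTCA) was found in 2 of the 10, against 18.0% of 10225 measured genes with an annotated 3′ UTR. An 8-base match was found in 1 of the 10, against 3.86%. The sites are shown with 10 bases on either side and the match in capitals. That of Cd28 lies in exon 4 of 4 (chr1:60771076-60771083, plus strand), and those of Cd4 in exon 10 of 10 (chr6:124865096-124865102 and chr6:124865063-124865069, minus strand):
Cd28 8-base match: acgacatcaaAGTTCTCAagtacctaca
Cd4 first 7-base match: gatcactgctGTTCTCAcccccccctc
Cd4 second 7-base match: ccaaaaccctAGTTCTCttagagtgag
The ratios of these genes were 1.02 for Cd28 and 1.07 for Cd4. Cd2, the gene with the lowest ratio, has an annotated 3′ UTR of only 58 nt and held no match. A match is a description of the sequence, and binding was not measured in these libraries. The miR-146a precursor gene, listed as Mir146, stood at the lowest listed value, that of 1 read, with 0.4996 RPKM in the Tg library and 0.530 RPKM in the WT library. No transcript is listed at 0 in either library, and 7930 of 30533 stand at equal reads in both, so this value is read as a floor and not as a detected read. Mature miRNAs, which have no poly(A) tail, are not captured by oligo(dT), so the level of mature miR-146a could not be checked in these libraries. Other RNA of the transgene was not looked for.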

How the data were processed

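Whole thymus RNA of 1 miR-146a Tg pool and 1 WT pool was analysed. The authors mapped reads to the mouse genome (mm10 in the submitters' processing notes) with HotHap2 (so spelled in the paper) and deposited RPKM values for RefSeq transcripts, from reads with a unique position, although the paper's text names FPKM. Its version, and whether strand was used, is not given in the sources used here. Symbols came from the RefSeq table of GRCm38.p6 and GENCODE M21 (30188 of 30533 transcripts). Reads were recovered from the RPKM steps, and the length nearest the GENCODE length was taken, with recovery tested on simulated data. Intervals of quotients of ratios were log-normal. Intervals on excess fragments took the excess as a count of its own. Genes with a mean of at least 1 RPKM were counted as measured. Alternatives were pseudocounts of 1 and 0.1, 3 scalings, other ways to join transcripts, folds of 1.2 and 2, a floor of 10 RPKM and no filter. UTRs and exons were read from GENCODE M21. Named genes were the 10 members, of each pathway list the 4 most abundant genes and those over 1.5-fold, and the nearest measured genes. Other genes, among them Runx3, H2-Ab1, H2-Eb1, H2-T3, Cd80, Cd86, Cd70, Alcam, Foxn1, Aire, Lyz2, Pecam1 and Arpp21, were named after their values were seen. The members and lists were chosen with earlier results of these data known. Python 3.11.15, numpy 2.4.6, pandas 2.3.3, scipy 1.17.1 and matplotlib 3.10.9 were used.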

Additional observations from a re-analysis of the deposited data

How the results depend on the processing

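The counts of receptors over 1.5-fold higher and over 1.5-fold lower in the Tg library were 0 under each of the 8 pseudocount, scaling and transcript alternatives and at a fold of 2. At a fold of 1.2 they were 1 (Thy1) and 1 (Cd2), because the limit is lower. In a comparison chosen after seeing the data, the higher count at 1.2-fold was 0 with median centring, 0 with upper quartile scaling and 3 with both libraries rescaled to 1 sum, and the lower count was 1 under every alternative. The median log2(Tg/WT) of the receptors, 0.05, moved to 0.17 with both libraries rescaled to 1 sum, which raises every gene by 0.12, and stayed between 0.01 and 0.05 under the other alternatives. That rescaling put 11.8% of all measured genes over 1.5-fold higher and 7.93% over 1.5-fold lower in the Tg library, against 7.74% and 11.0% as deposited. Of 80 single receptor values, 59 stayed within the counting interval and 21 moved outside it, between -0.50 and 0.41 on the log2 scale. Many of the 59 had little or no room to move. Genes with a single transcript keep their value under the transcript alternatives, and the pseudocounts are small beside these levels. With both libraries rescaled to 1 sum, every receptor moved outside its interval. Median centring and upper quartile scaling moved Cd4, Cd8a, Cd8b1 and Thy1. The transcript alternatives moved only Cd27. Its log2 went from -0.07 to -0.13 with the sum or the mean of transcripts and to -0.22 with the transcript of the lowest mean. The balance of Cd8a to Cd4 ran from 1.06 to 1.08 and that of Cd8b1 to Cd8a from 0.973 to 0.988. With 10 RPKM as the floor the shares of measured genes over 1.5-fold higher and lower were 5.26% and 8.17%, and with no filter 11.3% and 14.8%. No paired analysis was possible because each genotype has 1 library. For the same reason no value has a replicate check, and the fragment intervals limit only counting error.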
